A study of Mus musculus with 8 samples.

Results

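The transcripts described are those of 10 genes whose products fill or accompany the granules of neutrophils, taken from the 55487 genes counted in each library. They were found by Ensembl identifier and divided by when a maturing neutrophil makes them: 4 early genes (Elane, Mpo, Prtn3 and Ctsg) and 6 late genes (Ngp, Camp, Ltf, Lcn2, S100a8 and S100a9). The 10 were chosen by their counts in these same libraries, seen in an earlier description of the mutant and wild-type groups, so their levels and differences between groups are given as a description, and the fitted values beside them come from a model over the whole table and support nothing on their own. All 10 were among the 20631 genes that passed the filter on low counts. That filter used all 4 groups together, so a gene could pass it through the groups where it was high.

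The material was bulk RNA from conventional dendritic cells, the antigen-presenting cells that prime T cells, which had been sorted from untreated C57BL/6 spleens at 100000 cells per sample. There were 4 groups of 2 libraries. Wild-type mice gave a cDC1 and a cDC2 group, mice of the genotype Zeb2 -165(d1+2+3), called Zeb2 mutant here, gave cDC1, and mice of the genotype Irf8 +32-/-, called Irf8 mutant, gave cDC2. Both genotypes name altered regulatory elements of a transcription factor gene, Zeb2 or Irf8, and not a loss of coding sequence, and each mutant was available in 1 cell type, so the Zeb2 genotype is read within cDC1 and the Irf8 genotype within cDC2. The mice's age, the sorting gates, the number of animals behind a library and whether the replicates, numbered 2 and 3, are separate animals were stated in no source used here, so p-values measure the spread between these libraries, which may be technical.

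Neutrophil granules are made in a fixed order in the bone marrow. Promyelocytes make the azurophil granules with myeloperoxidase and the serine proteases, later stages make the specific and gelatinase granules with lactoferrin, cathelicidin and lipocalin, and S100a8 and S100a9 fill the cytosol of the maturing cell. Mature neutrophils keep the early proteins but little of their messenger RNA, and monocytes also make S100a8 and S100a9.

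Libraries held between 49380686 and 58611821 counts, and the labels matched the cells: all 9 cDC1 markers were higher and all 9 cDC2 markers were lower in wild-type cDC1 than in wild-type cDC2 (edgeR's quasi-likelihood test, adjusted p under 0.05). Neither targeted gene passed the test in the mutant cells sequenced. Levels are given as CPM, read counts scaled to library size with edgeR's TMM correction for library composition, with replicate 2 named before replicate 3. Zeb2 was at 2.09 and 2.10 CPM (wild-type cDC1) and 2.24 and 3.54 CPM (Zeb2 mutant cDC1), with an edgeR adjusted p of 0.477. Irf8 was at 126 and 104 CPM (wild-type cDC2) and 147 and 120 CPM (Irf8 mutant cDC2), with an edgeR adjusted p of 0.914. Single libraries stood apart for the transcripts described here: wild-type cDC1 replicate 2 and wild-type cDC2 replicate 3 were far above the other library of their group in granule genes. Irf8 mutant replicate 2 had the highest sums of erythroid and platelet markers and of eosinophil, basophil and mast cell markers. Differences are therefore also given without these libraries.

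Several of the genes are neighbours in the mouse genome (build GRCm38, coordinates of the deposited files). Elane (ENSMUSG00000020125, chromosome 10, 79886247 to 79888215) follows Prtn3 (ENSMUSG00000057729, chromosome 10, 79874476 to 79883174) at a distance of 3.1 kb on the same strand. S100a8 (ENSMUSG00000056054, chromosome 3, 90668978 to 90670035) and S100a9 (ENSMUSG00000056071, chromosome 3, 90692632 to 90695721) are 22.6 kb apart on opposite strands. On chromosome 9, Ngp (ENSMUSG00000032484, 110419747 to 110423012) lies 570.1 kb from Camp (ENSMUSG00000038357, 109847379 to 109849617) and 596.3 kb from Ltf (ENSMUSG00000032496, 111019271 to 111042767). Mpo (ENSMUSG00000009350) lies on chromosome 11 at 87793581 to 87804413, Ctsg (ENSMUSG00000040314) on chromosome 14 at 56099881 to 56102574, and Lcn2 (ENSMUSG00000026822) on chromosome 2 at 32384633 to 32388252.

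Upstream sequence is shown for 2 early and 2 late genes because they hold clear examples of the short motifs counted for the 2 sets. The stretches are 120 bases of the RefSeq promoter table (GRCm38.p6, plus strand, 5′ to 3′) that end just before the first deposited exon in the window: chr10:79886127-79886246 for Elane, chr10:79879494-79879613 for Prtn3, chr9:110419627-110419746 for Ngp and chr9:111019151-111019270 for Ltf. The Prtn3 stretch lies inside the longer gene model of the files. Capitals mark matches to GAGGAA, a core bound by PU.1, in the early genes. In the late genes they mark TTGCNNAA, a form of the C/EBP site, in Ngp and its reverse complement, TTNNGCAA, in Ltf.
Elane: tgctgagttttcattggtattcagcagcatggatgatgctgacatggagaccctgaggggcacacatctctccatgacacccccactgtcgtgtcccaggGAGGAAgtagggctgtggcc
Prtn3: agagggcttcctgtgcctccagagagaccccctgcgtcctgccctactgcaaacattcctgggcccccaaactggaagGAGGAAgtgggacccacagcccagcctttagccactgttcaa
Ngp: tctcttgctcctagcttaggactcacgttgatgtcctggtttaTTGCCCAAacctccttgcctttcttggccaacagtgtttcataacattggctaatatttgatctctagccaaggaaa
Ltf: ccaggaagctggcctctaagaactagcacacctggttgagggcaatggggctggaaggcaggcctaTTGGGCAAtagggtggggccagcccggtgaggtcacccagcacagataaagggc

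Over the 250 bases before the RefSeq start of each gene, on both strands, GAGGAA was found in all 4 early genes and in 3 of 6 late genes (Ltf, Lcn2 and S100a8), against 23.4% of 32536 promoters. TTGCNNAA was found in 0 of 4 early and 4 of 6 late genes (Ngp, Ltf, Lcn2 and S100a9), against 9.57% of promoters. A RUNX motif, TGTGGT, was in Ctsg and S100a9 (14.0% of promoters), and a MYB motif, AACGG, was in Elane and Prtn3 (14.4%). All 10 genes matched the table. These are letter matches in a fixed window, and no binding was measured.

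Of the early genes, Elane, which encodes neutrophil elastase, was the most even within the mutants. It stood at 1.14 and 0.188 CPM in wild-type cDC1 (66 and 11 counts), 0.0909 and 0.533 in wild-type cDC2 (5 and 30 counts), 8.43 and 8.37 in Zeb2 mutant cDC1 (490 and 454 counts) and 3.52 and 3.83 in Irf8 mutant cDC2 (183 and 188 counts). All 4 mutant libraries were above all 4 wild-type libraries, and the Zeb2 mutant pair was above the Irf8 mutant pair. Counting error is small against these gaps: the 95% exact binomial interval of the 66 counts runs from 0.871 to 1.43 CPM over the library's total, and it covers counting error only.

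Mpo, the myeloperoxidase that makes hypochlorous acid, gave 3.39 and 0.205 CPM in wild-type cDC1, 0.764 and 6.77 in wild-type cDC2, 16.1 and 25.3 in Zeb2 mutant cDC1 and 5.57 and 15.1 in Irf8 mutant cDC2. The Zeb2 mutant libraries were above both wild-type cDC1 libraries, whereas 1 Irf8 mutant library, replicate 2, lay below wild-type cDC2 replicate 3. Prtn3, the protease proteinase 3, gave 1.05 and 0.154 CPM, 0.164 and 0.107 CPM, 1.62 and 2.77 CPM, and 0.462 and 0.775 CPM in the same order of groups. Both mutant pairs were above the wild-type pair of their own cell type, although wild-type cDC1 replicate 2 was above both Irf8 mutant libraries. Prtn3 reads are uncertain: 159 bases of its exons are shared with Plppr3 on the opposite strand, the library kit does not mark strand, and Plppr3 itself was counted 1903 times over the 8 libraries, against 391 for Prtn3.

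Ctsg, the protease cathepsin G, was the rarest of the 10. It gave 0.0864 and 0.0342 CPM in wild-type cDC1 (5 and 2 counts), 0.109 and 0.0711 in wild-type cDC2 (6 and 4 counts), 1.24 and 0.664 in Zeb2 mutant cDC1 (72 and 36 counts) and 0.154 and 1.04 in Irf8 mutant cDC2 (8 and 51 counts). All 4 mutant libraries were above all 4 wild-type libraries, but Irf8 mutant replicate 2, with 8 counts, was close to wild-type cDC2 replicate 2, with 6.

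Of the late genes, Ngp, which encodes a protein of the specific granules, ranged most widely. It gave 4.42 and 0 CPM in wild-type cDC1 (256 and 0 counts), 0.0364 and 9.73 in wild-type cDC2 (2 and 548 counts), 25.5 and 36.0 in Zeb2 mutant cDC1 (1485 and 1955 counts) and 56.0 and 15.2 in Irf8 mutant cDC2 (2910 and 745 counts). The lowest mutant library was above the highest wild-type library, yet within each wild-type group 1 library had at least 256 reads and the other at most 2. With 0 counts, a level of up to 0.0539 CPM is allowed in wild-type cDC1 replicate 3.

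Camp, the precursor of the antimicrobial peptide cathelicidin, gave 1.07 and 0.12 CPM in wild-type cDC1, 0.0364 and 0.799 in wild-type cDC2, 6.76 and 6.09 in Zeb2 mutant cDC1 and 6.74 and 2.12 in Irf8 mutant cDC2. Ltf, the iron-binding lactoferrin, gave 0.657 and 0.205 CPM, 0.636 and 7.37 CPM, 16.2 and 21.8 CPM, and 33.4 and 10.99 CPM in the same order. For both genes all 4 mutant libraries exceeded all 4 wild-type libraries, and Irf8 mutant replicate 2 was about as high as the Zeb2 mutant libraries for Camp and above them for Ltf. Lcn2, which binds bacterial siderophores, gave 0.432 and 0 CPM, 0.0364 and 2.11 CPM, 4.02 and 4.06 CPM, and 9.63 and 2.06 CPM. Its Irf8 mutant replicate 3 lay just under wild-type cDC2 replicate 3, so those 2 groups overlapped.

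S100a8 and S100a9 encode the 2 chains of calprotectin, a calcium- and zinc-binding protein. S100a8 gave 1.83 and 0.12 CPM in wild-type cDC1, 0.0727 and 1.30 in wild-type cDC2, 12.6 and 22.0 in Zeb2 mutant cDC1 and 8.86 and 5.02 in Irf8 mutant cDC2. S100a9 gave 2.13 and 0.103 CPM, 0 and 2.45 CPM, 12.0 and 17.8 CPM, and 11.3 and 4.85 CPM. All 4 mutant libraries were above all 4 wild-type libraries for both chains. Per length (FPKM, deposited), S100a8 was between 0.398 and 0.927 times S100a9 in the 7 libraries where S100a9 was counted.

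**Figure D1:**
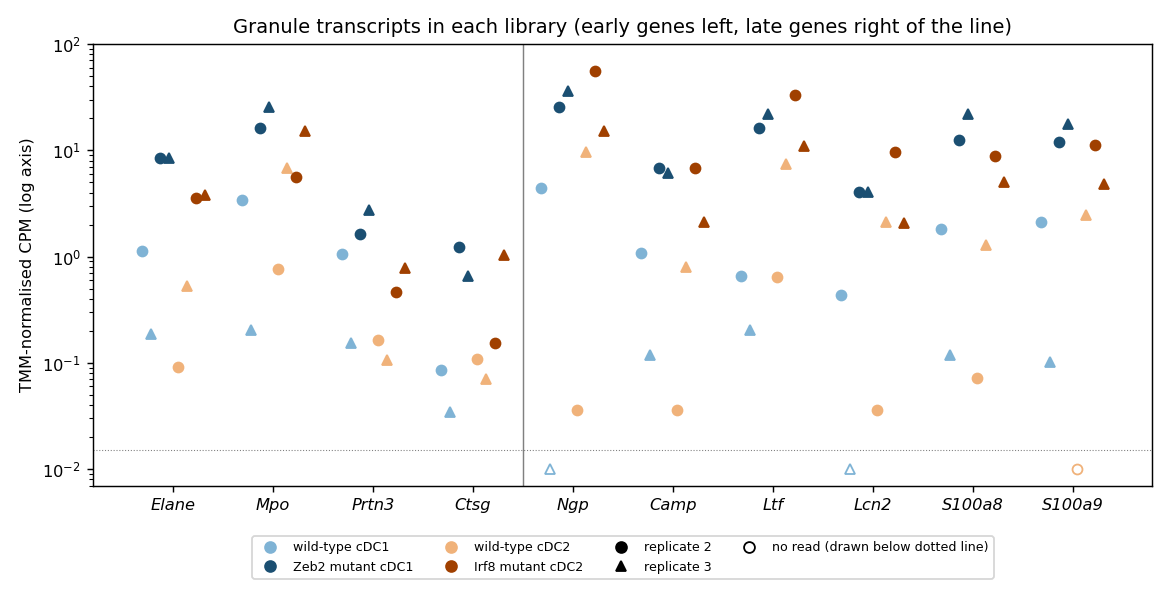
TMM-normalised CPM of each of the 10 genes in each of the 8 libraries, on a log axis, with 1 point per library and libraries at 0 drawn below the dotted line. The Zeb2 mutant cDC1 points lie above both wild-type cDC1 points for every gene, and within each wild-type group 1 library is well above the other for most genes.

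Per kilobase of exon, which allows genes to be compared with each other, the late genes Ngp, S100a9 and S100a8 were the most abundant, with mean levels over the 8 libraries of 15.0, 12.3 and 9.48 FPKM. Camp (3.95 FPKM), Elane (3.38), Ltf (3.30) and Mpo (2.71) followed, and Lcn2 (1.06), Prtn3 (0.522) and Ctsg (0.419) were the lowest. In Zeb2 mutant cDC1 the leading levels were S100a9 at 29.6 ± 7.78 FPKM, Ngp at 26.2 ± 5.90 FPKM and S100a8 at 25.9 ± 9.52 FPKM (SD, n = 2), which do not differ beyond their spread. In Irf8 mutant cDC2 they were Ngp at 28.1 ± 22.3 FPKM and S100a9 at 15.0 ± 8.13 FPKM, which also overlap within their spread.

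Added together, the 4 early genes gave 5.67 and 0.582 CPM in wild-type cDC1, 1.13 and 7.48 in wild-type cDC2, 27.4 and 37.1 in Zeb2 mutant cDC1 and 9.71 and 20.7 in Irf8 mutant cDC2. The group means were 3.12 ± 3.60, 4.30 ± 4.49, 32.3 ± 6.91 and 15.2 ± 7.80 CPM (SD, n = 2). The 6 late genes gave 10.5 and 0.547 CPM, 0.818 and 23.8 CPM, 77.1 and 107.7 CPM, and 126.0 and 40.2 CPM, with means of 5.54 ± 7.07, 12.3 ± 16.2, 92.4 ± 21.7 and 83.1 ± 60.7 CPM. The order of the early sums was Zeb2 mutant cDC1, Irf8 mutant cDC2, then the wild-type groups, and the wild-type groups overlapped each other. The late sums of the mutant groups overlapped, since the Irf8 mutant pair lay on both sides of the Zeb2 mutant pair. In bulk RNA, fewer cells of a type and less RNA per cell cannot be told apart, and neither can a low level in many cells and a high level in a few.

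**Figure D2:**
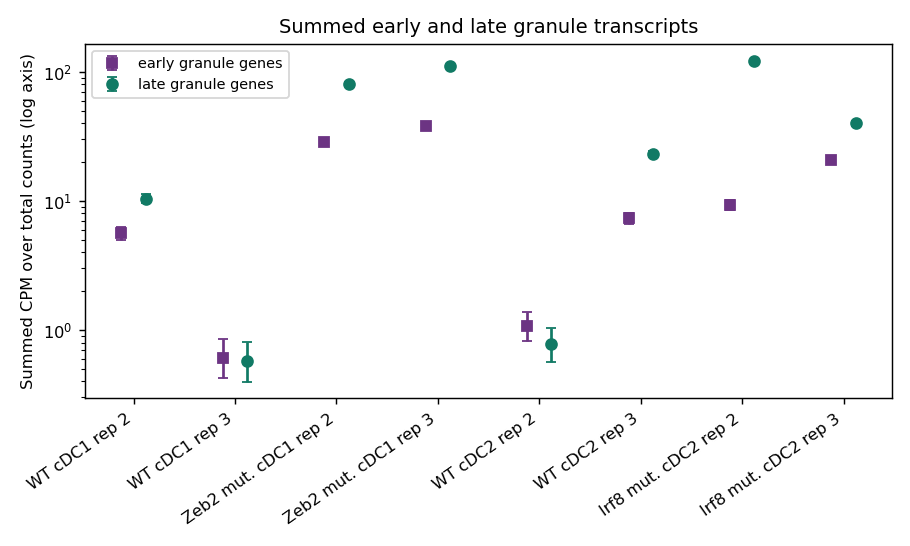
Summed counts of the early and of the late granule genes in each of the 8 libraries, as CPM over total counts on a log axis, with 95% exact binomial intervals that cover counting error only. Both sums are higher in each mutant library than in each wild-type library, and wild-type cDC1 replicate 2 and wild-type cDC2 replicate 3 stand above the other library of their group.

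The 2 libraries of a wild-type group were far from alike. Over all 10 genes the higher library had 14.4 times the level of the lower in wild-type cDC1 and 16.1 times in wild-type cDC2, against 1.39 times in Zeb2 mutant cDC1 and 2.23 times in Irf8 mutant cDC2. In counts, the 10 genes together had 938 and 66 reads in wild-type cDC1, 107 and 1759 in wild-type cDC2, 6071 and 7856 in Zeb2 mutant cDC1 and 7048 and 2990 in Irf8 mutant cDC2. The high library was replicate 2 in wild-type cDC1 and replicate 3 in wild-type cDC2, so the replicate number did not mark it.

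For the Zeb2 genotype within cDC1, the mean level was higher in the mutant for 10 of 10 genes, against 47.0% of tested genes, and the mutant and wild-type libraries did not overlap for any of them, against 19.2% of tested genes whose mutant pair lay above the wild-type pair. Under edgeR's test, with adjustment over the 20631 tested genes, 0 of the 10 passed, while 0.0679% of all tested genes (14) did. At an unadjusted p under 0.05, 6 of the 10 were higher (5.5% of tested genes), and DESeq2 called 3 of them higher (0.912% of the genes it tested): Elane, Ctsg and Ltf. The median log2 difference of the members was 3.77, and that of all tested genes was -0.03. Since the members were chosen with this contrast known, nothing is read from these counts.

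Among the early genes, Elane was 12.6-fold higher in the Zeb2 mutant by the ratio of mean CPM, with a log2 difference of 3.66 (SE 0.77, edgeR adjusted p = 0.160, DESeq2 adjusted p = 0.0374). Ctsg was 15.8-fold higher (log2 3.93, SE 1.01, edgeR adjusted p = 0.239, DESeq2 adjusted p = 0.0273). Mpo was 11.5-fold higher (log2 3.53, SE 1.55, edgeR adjusted p = 0.515) and Prtn3 3.63-fold (log2 1.86, SE 0.75, edgeR adjusted p = 0.427). Among the late genes the difference was widest for Ltf, at 44.0-fold (log2 5.45, SE 1.40, edgeR adjusted p = 0.320, DESeq2 adjusted p = 0.00290). The ratios of the other 5 late genes lay between 10.8-fold for Camp and 18.7-fold for Lcn2, and their edgeR adjusted p between 0.417 and 0.641.

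These sizes rested on which wild-type cDC1 library was the reference. Without wild-type cDC1 replicate 2, the log2 differences ran from 3.81 for Prtn3 to 13.72 for Ngp. Ngp and Lcn2 (10.79) have no count in the wild-type cDC1 library left, so their values there depend on the model's prior count and are no measured fold. Without wild-type cDC1 replicate 3, they ran from 1.05 for Prtn3 to 4.85 for Ltf, and Elane passed the threshold (log2 2.88, edgeR adjusted p = 0.0417). Every member stayed higher in the mutant under both, and leaving out either Zeb2 mutant library kept the log2 differences between 1.42 and 5.65.

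For the Irf8 genotype within cDC2, the mean was higher in the mutant for 10 of 10 genes, against 51.2% of tested genes. The mutant pair lay above the wild-type pair for 8 of them, all but Mpo and Lcn2, where 19.6% of tested genes did so. Under edgeR's test 0 of the 10 passed and 0.0% of all tested genes did. With only the 4 libraries of this comparison, 9 of the 10 passed the filter on low counts. At an unadjusted p under 0.05, 4 of 10 were higher (Elane, Prtn3, Ctsg and Camp, against 3.33% of tested genes), and DESeq2 called 0 of 10, with 0.948% of its tested genes called in either direction. The median log2 difference of the members was 2.71, beside 0.01 for all tested genes.

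Elane was 11.8-fold higher in the Irf8 mutant (log2 3.55, SE 0.80, edgeR adjusted p = 0.371), Camp 10.6-fold (log2 3.40, SE 1.28, edgeR adjusted p = 0.746) and S100a8 10.1-fold (log2 3.33, SE 1.42, edgeR adjusted p = 0.806). Mpo had the smallest ratio, 2.74-fold (log2 1.45, SE 1.43, edgeR adjusted p = 0.953). The remaining 6 ratios lay between 4.58-fold for Prtn3 and 7.29-fold for Ngp. Without wild-type cDC2 replicate 3 the log2 differences ran from 1.87 for Prtn3 to 11.76 for S100a9, which has no count in the wild-type cDC2 library left, so that value depends on the prior count and is no measured fold. Without wild-type cDC2 replicate 2 they ran from 0.61 for Mpo to 3.03 for Ctsg. Without Irf8 mutant replicate 2 they ran from 0.93 for Lcn2 to 3.61 for Elane, and without Irf8 mutant replicate 3 from 0.56 for Mpo to 4.0 for Camp. None of the 10 changed sign or passed the threshold when any of these 4 libraries was left out.

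**Figure D3:**
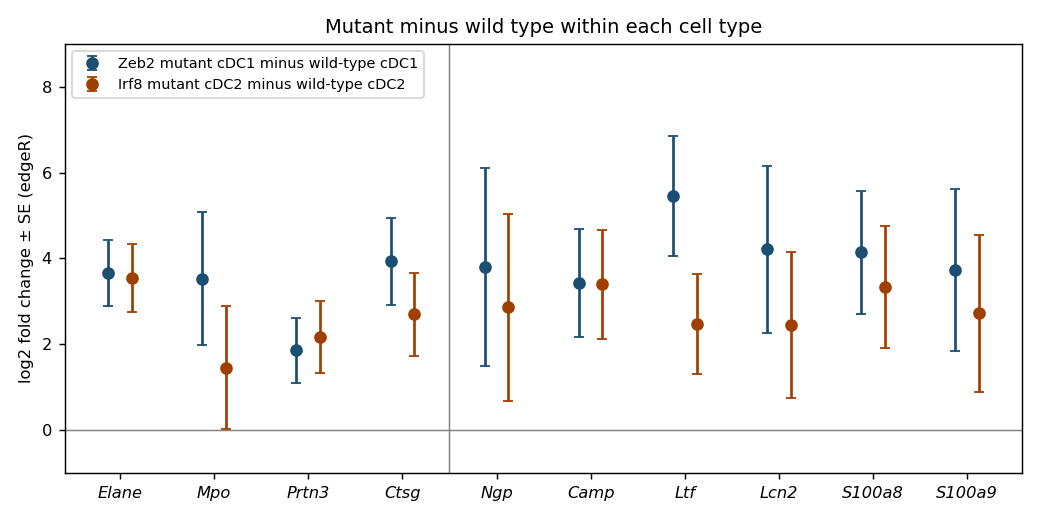
Log2 differences of the 10 genes for Zeb2 mutant minus wild-type cDC1 and Irf8 mutant minus wild-type cDC2, with bars of 1 SE from edgeR's fit over all 8 libraries. All values are positive, between 1.45 and 5.45, and the errors are widest for Ngp.

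Setting all 4 mutant libraries against all 4 wild-type libraries, across both cell types, 7 of the 10 genes had every mutant library above every wild-type library (2 of 4 early and 5 of 6 late), against 1.1% of tested genes. This grouping was chosen after the values were seen. The exceptions were Mpo, Prtn3 and Lcn2, each through a single wild-type library: wild-type cDC2 replicate 3 at 6.77 CPM for Mpo and 2.11 CPM for Lcn2, and wild-type cDC1 replicate 2 at 1.05 CPM for Prtn3.

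Between the mutants, 5 of 10 genes were higher in both Zeb2 mutant cDC1 libraries than in both Irf8 mutant cDC2 libraries (Elane, Mpo, Prtn3, S100a8 and S100a9), against 32.2% of tested genes. Under edgeR's test 0 of 10 passed, where 27.9% of tested genes did, and DESeq2 called 0 of 10, where it called 28.2% of its genes. At an unadjusted p under 0.05, 1 of 10 was higher in edgeR (17.9% of tested genes), which was Prtn3 (3.54-fold, log2 1.82, SE 0.75, edgeR adjusted p = 0.101). Ngp, Ltf and Lcn2 had log2 differences of -0.21, -0.23 and -0.53. These groups differ in cell type and genotype at once, which cannot be told apart.

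Between wild-type cDC1 and wild-type cDC2 the libraries overlapped for all 10 genes, where 32.8% of tested genes were higher and 32.1% lower without overlap. The overlap of Prtn3 depended on the TMM correction. As CPM over total counts, both cDC1 libraries (1.04 and 0.162) were above both cDC2 libraries (0.1555 and 0.104). The counts were 61 and 9 in cDC1 and 9 and 6 in cDC2. The gap between cDC1 replicate 3 and cDC2 replicate 2, with 9 counts each, was thus within counting error. The higher Prtn3 mean of cDC1 came mostly from the 61 counts of replicate 2. Under edgeR 0 of 10 passed, against 30.1% of tested genes. With only these 4 libraries, 8 of the 10 passed the filter on low counts, so not all could be tested on wild-type counts alone. At an unadjusted p under 0.05, 1 of 10 was higher in cDC1 (19.3% of tested genes), which was Prtn3 (log2 2.14, SE 0.83, edgeR adjusted p = 0.0795). DESeq2 called 2 of 10, where it called 35.8% of its genes: Prtn3 (adjusted p = 0.0385) and Ltf, lower in cDC1 (log2 in edgeR -3.21, DESeq2 adjusted p = 0.0310). The difference between the Zeb2 effect and the Irf8 effect was tested as an interaction: 0 of 10 passed in edgeR, beside 0.0194% of tested genes, with 0 at an unadjusted p under 0.05 (3.8% of tested genes higher) and 0 in DESeq2 (1.13% of its genes), which gave no adjusted p for Ctsg. Its largest value was that of Ltf, a log2 difference of 2.98 (SE 1.72, edgeR adjusted p = 0.752). For no member was the difference in 1 mutant shown to exceed that in the other.

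The mix of early and late transcripts varied from library to library. Early genes made up 34.97% (95% exact binomial interval 31.9 to 38.1) and 51.5% (38.9 to 64.0) of the 10 genes' counts in wild-type cDC1, and 57.9% (48.0 to 67.4) and 23.9% (22.0 to 26.0) in wild-type cDC2. They made up 26.2% (25.1 to 27.3) and 25.6% (24.7 to 26.6) in Zeb2 mutant cDC1, where the 2 libraries agree within counting error. In Irf8 mutant cDC2 they made up 7.15% (6.56 to 7.78) and 34.0% (32.3 to 35.7), far beyond counting error. Irf8 mutant replicate 2 had 12.98 late counts for each early count and replicate 3 had 1.94, so the replicate with the higher late sum had the lower early sum. The highest early shares came from the 2 libraries with the fewest granule reads.

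**Figure D4:**
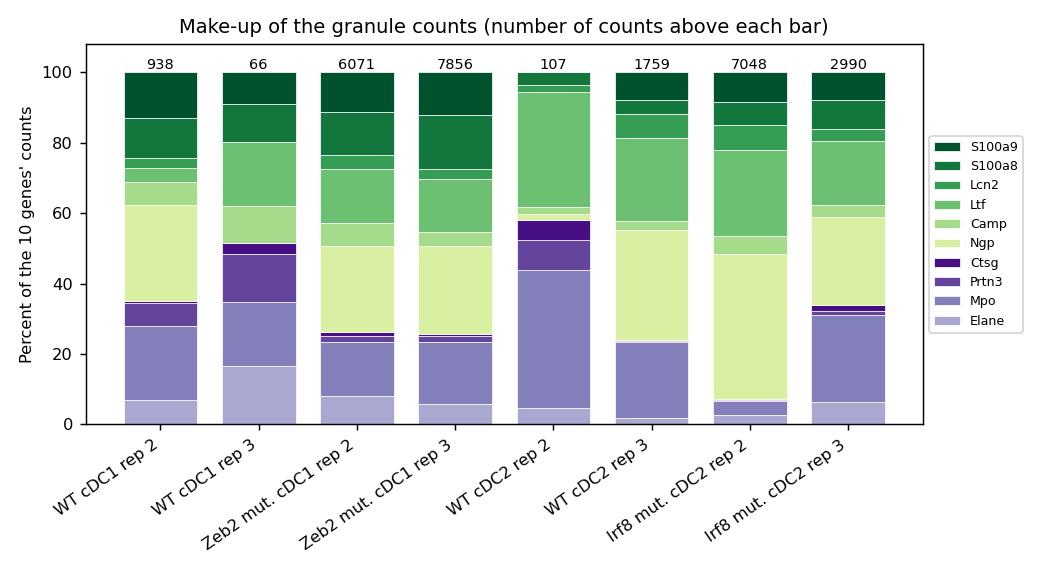
Share of each gene among the counts of the 10 granule genes in each library. The Zeb2 mutant libraries have early shares of 26.2% and 25.6%, while the Irf8 mutant libraries have 7.15% and 34.0%.

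Across the 8 libraries the late genes moved closely together. The Pearson correlation of log2(CPM + 0.5) ran from 0.88 to 0.99 over the 15 pairs of late genes (median 0.94), from 0.70 to 0.89 over the 6 pairs of early genes (median 0.80) and from 0.47 to 0.98 over the 24 mixed pairs (median 0.80). The points are 8 libraries in 4 groups, so a pair of genes that is high in both mutants correlates by that alone.

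Of 10803 other genes with a mean level of 1 CPM or more, the 1 most like the late sum was Chil3, which encodes a chitinase-like protein of neutrophil granules and of macrophages (r = 0.96, 8 libraries). Chil3 stood at 1.43 and 0.137 CPM in wild-type cDC1, 0.382 and 5.42 in wild-type cDC2, 7.81 and 9.42 in Zeb2 mutant cDC1 and 29.1 and 8.67 in Irf8 mutant cDC2, with the same library the higher of the pair in every group as for Ltf. The next 4 were St3gal3 (0.95), Fbxw7 (0.90), Aftph (0.89) and Slfn1 (0.89). For the early sum they were Aftph (0.97), St3gal3 (0.97), Tax1bp1 (0.97), Rnpc3 (0.95) and Slfn1 (0.94). Apart from Chil3 these genes moved far less than the granule sums, so their likeness is in shape and not in size. Aftph ran from 104.6 to 136.4 CPM, Rnpc3 from 12.1 to 23.3 CPM and Slfn1 from 1.42 to 3.13 CPM.

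Of 9 other genes of early granules and granule processing, 0 passed edgeR's threshold in either mutant comparison, and their median log2 differences were 0.33 for Zeb2 and 0.34 for Irf8. The most abundant, Srgn (serglycin, the granule proteoglycan), Ctsc (which activates the granule proteases) and Cebpa (a C/EBP factor), were among those that did not pass. Srgn was at 1121 and 627 CPM in wild-type cDC1 against 669.5 and 746 in the Zeb2 mutant, and Ctsc was at 348 and 247 CPM against 269 and 265 CPM, with overlap for both. Cebpa was at 15.3 and 11.1 CPM in wild-type cDC1 against 20.04 and 25.1 in the Zeb2 mutant, and at 21.7 and 19.3 CPM in wild-type cDC2 against 16.6 and 13.1 in the Irf8 mutant, so without overlap but in opposite directions. Ms4a3, a gene of granulocyte and monocyte progenitors, was at 0 in both wild-type cDC1 libraries and at 0.499 and 0.959 CPM in the Zeb2 mutant, and at 0.145 and 0.0178 CPM in wild-type cDC2 against 0.270 and 0.571 CPM in the Irf8 mutant. Fcnb, a ficolin of granules, was at 0 in both wild-type cDC1 libraries, at 0.894 and 1.38 CPM in the Zeb2 mutant, at 0 and 0.462 CPM in wild-type cDC2 and at 3.72 and 0.469 CPM in the Irf8 mutant. Both pairs of groups were without overlap for both genes, as were 19.2% of tested genes for Zeb2 and 19.6% for Irf8. For Fcnb in cDC2 the gap was within counting error: Irf8 mutant replicate 3 had 23 counts and wild-type cDC2 replicate 3 had 26. Ms4a3 and Fcnb were singled out after their values were seen.

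Between the wild-type cell types 4 of these 9 passed, where 30.1% of all tested genes did. Prss57 (log2 3.59) and Serpinb1a (log2 1.21) were higher in cDC1, and Ctsc (log2 -1.89) and Cebpa (log2 -0.63) were lower. Between the mutants' cell types Prss57 was higher (log2 2.95) and Ctsc lower (log2 -2.18), where 27.9% of all tested genes passed. Of 11 other late granule genes, 10 were tested and 0 passed in either mutant comparison, with median log2 differences of 2.16 for Zeb2 and 0.64 for Irf8. Mmp9 (log2 -6.72), Cd177 (log2 -6.80), Hp (log2 -3.16) and Pglyrp1 (log2 -2.62) were lower in wild-type cDC1 than in cDC2, and Mmp9 and Pglyrp1 were lower in the mutants' cDC1 too. The same 30.1% and 27.9% of all tested genes stand beside these. Lyz2, the most abundant of this list, was at 1078 and 602 CPM in wild-type cDC1. In the Zeb2 mutant it was at 585 and 902 CPM, with overlap. In cDC2 the 3 most abundant genes were lower in the Irf8 mutant without overlap. Lyz2 was at 663 and 666 CPM in wild-type cDC2 against 478 and 393 in the Irf8 mutant. Pglyrp1 was at 43.03 and 46.4 CPM against 28.3 and 36.99, and Mmp9 at 29.5 and 23.7 CPM against 10.98 and 20.25. Of the 10 tested, 6 had a positive log2 difference there. For 4 of the 11, tested or not, the Irf8 mutant pair lay above the wild-type pair.

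Of 13 genes of mature neutrophils outside the granules, 11 were tested and 0 passed in either mutant comparison, with median log2 differences of 0.92 for Zeb2 and 0.67 for Irf8. The mutant pair lay above the wild-type pair for 5 of the 13, tested or not, in the Zeb2 comparison and 4 in the Irf8 comparison. Among all tested genes, 19.2% and 19.6% did so. Their summed level, mostly Il1r2, was 37.7 to 75.0 CPM in wild-type cDC1, 31.4 to 46.2 in Zeb2 mutant cDC1, 907 to 969 in wild-type cDC2 and 1351 to 1551 in Irf8 mutant cDC2. Trem1, a receptor of neutrophils and monocytes, was at 0.0518 and 0.205 CPM in wild-type cDC1 and 0.585 and 0.793 in the Zeb2 mutant (log2 2.39, edgeR adjusted p = 0.123), and at 17.2 and 24.9 CPM in wild-type cDC2 and 26.1 and 25.02 in the Irf8 mutant. Ly6g, the surface marker used to sort mouse neutrophils, had 1 and 2 counts in wild-type cDC1, 2 and 0 in wild-type cDC2, 6 and 9 in Zeb2 mutant cDC1 and 2 and 0 in Irf8 mutant cDC2, so the Zeb2 mutant pair was the higher, at under 10 counts. Cxcr2, the chemokine receptor of mature neutrophils, had at most 13 counts in any library, and Stfa3 had at most 2. Retnlg, a transcript of mature neutrophils, had 2 and 6, 11 and 2, 43 and 26, and 29 and 17 counts, so both mutant pairs were above their wild-type pair at levels below 1 CPM. Ly6g, Cxcr2, Stfa3 and Retnlg were singled out after their values were seen, and the part of these markers in the granule levels was not tested.

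Csf3r and Il1r2, the receptor and decoy receptor that neutrophils carry, differed by dendritic cell type: Il1r2 was at 904.5 and 841 CPM in wild-type cDC2 against 55.0 and 22.0 CPM in wild-type cDC1 (log2 -4.50), and Csf3r at 37.0 and 29.2 CPM against 0.588 and 0.171 CPM (log2 -6.44). Within cDC2, Csf3r was at 25.4 and 21.7 CPM in the Irf8 mutant, below both wild-type libraries (log2 -0.49, edgeR adjusted p = 0.922). Of the 11 tested genes of mature neutrophils, 9 had a positive log2 difference in that comparison. Between the wild-type cell types Trem1 was lower in cDC1 as well, and Asprv1 and Stfa2l1 were higher. The 3 lower genes were also lower between the mutants' cell types. Among all tested genes, 30.1% passed between the wild-type cell types and 27.9% between the mutants' cell types. Of 9 receptors and relatives of the granule proteins, 0 passed in either mutant comparison. Between the wild-type cell types Cd36 (log2 5.04) was higher in cDC1, while the endocytic receptor Lrp1 (log2 -5.40) and the calprotectin relatives S100a4 (log2 -5.24) and S100a6 (log2 -2.15) were lower. Between the mutants' cell types these genes passed in the same directions. A further relative, S100a10, was lower in cDC1 there (log2 -0.90, edgeR adjusted p = 0.0202). S100a11, the most abundant relative, was at 617 and 367 CPM in wild-type cDC1 and 427 and 486 in the Zeb2 mutant, and 473 and 560.1 against 489 and 644 CPM in the Irf8 comparison, with overlap in both.

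Markers of other spleen and marrow cells are given beside the granule genes as summed CPM over each list, and their part in the granule levels was not tested. The 10 erythroid and platelet markers summed to 18.5 and 10.5 CPM in wild-type cDC1, 12.7 and 17.4 in wild-type cDC2, 26.6 and 32.2 in Zeb2 mutant cDC1 and 94.9 and 8.16 in Irf8 mutant cDC2. The 9 markers of eosinophils, basophils and mast cells summed to 4.41 and 1.33, 14.2 and 8.03, 4.59 and 3.25, and 27.5 and 11.1 CPM. In both lists the highest sum was that of Irf8 mutant replicate 2, which also had the highest late granule sum. Its Hba-a1 was at 31.3 CPM against 1.51 CPM in replicate 3, and its Prg2, an eosinophil granule gene, at 11.9 against 0.857 CPM. Siglecf, the most abundant of the eosinophil, basophil and mast cell markers, was level in that pair, at 6.93 and 7.16 CPM. The 4 cDC1 libraries had the same order by their erythroid and platelet sum as by their early and late granule sums, while in cDC2 the lowest erythroid and platelet sum was that of Irf8 mutant replicate 3, which was above both wild-type libraries in both granule sums.

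The progenitor, T cell, and B and plasma cell sums were also higher in both Zeb2 mutant libraries than in both wild-type cDC1 libraries, by much smaller ratios, as was the cDC1 marker sum (9360 and 11878 against 12372 and 12166 CPM). The 5 progenitor markers, mostly Kit, summed to between 515 and 721 CPM in wild-type cDC1, 764 and 765 in Zeb2 mutant cDC1, 1031 and 1145 in wild-type cDC2 and 1105 and 1185 in Irf8 mutant cDC2. The 10 monocyte markers summed to 397 to 449.6, 345 to 349.9, 420 to 457 and 315 to 529 CPM in that order of groups, and the 10 red pulp macrophage markers to 79.7 to 97.6, 70.1 to 78.9, 387 to 425 and 374 to 490.5 CPM. The 10 B and plasma cell markers gave 503 to 604, 621 to 626, 565 to 783 and 381 to 624 CPM. The 7 T cell markers gave 65.02 to 76.9, 86.6 to 91.2, 76.7 to 86.5 and 69.7 to 98.0 CPM, and the 6 NK cell markers 26.2 to 43.2, 29.9 to 38.7, 77.4 to 92.5 and 75.3 to 102.3 CPM.

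**Figure D5:**
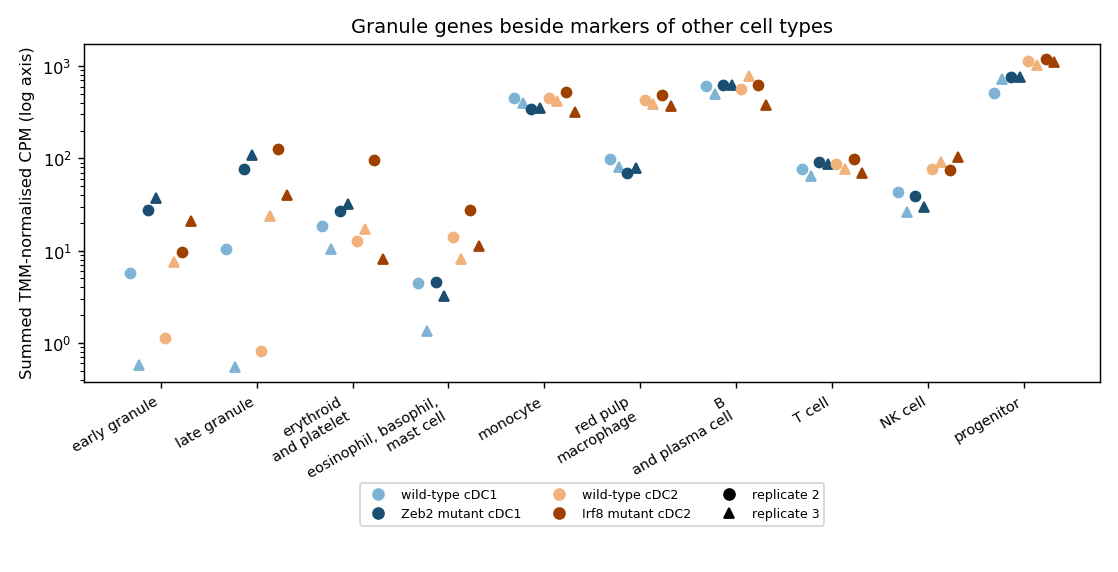
Summed TMM-normalised CPM of each list of marker genes in each of the 8 libraries. Irf8 mutant cDC2 replicate 2 is the highest library for the erythroid and platelet list (94.9 CPM) and for the eosinophil, basophil and mast cell list (27.5 CPM).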

How the data were processed

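RNA from sorted splenic dendritic cells was sequenced in 8 libraries, 4 groups of 2. Tools named in the submitters' processing notes are STAR, featureCounts (written there as 2.0.32) of Subread, Salmon (written as 1.5.23) and bcl2fastq, with GRCm38 and mm10. These version numbers were not checked. No source used here states the strand setting or the handling of shared reads. Per the file headers, each of 55487 genes has a read count, CPM, FPKM and TPM. The deposited CPM, FPKM and TPM were recomputed from the deposited counts and lengths and matched. FPKM was used to compare genes, and TPM was not used further. Symbols came from a gene name table that held 55141 of the IDs.

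Counts were fitted with edgeR 4.0.16 in R 4.3.3 (filterByExpr, TMM, robust quasi-likelihood, 4 groups over 8 libraries, 4 residual degrees of freedom), adjusted by Benjamini-Hochberg over 20631 genes and called under 0.05. The common biological coefficient of variation was 0.286, and the SE is the size of the log2 difference over the square root of F. The model was tried on simulated counts with 50 genes changed at each size in Zeb2 mutant cDC1. It recovered 22% of 2-fold, 54% of 4-fold, 78% of 8-fold and 80% of 16-fold changes. Each simulated gene had a single mean over all 8 libraries, unlike the members with their uneven wild-type pairs, so nothing about the members is read from it. DESeq2 1.42.0, RLE scaling, no count filter, a length trend, a replicate block, fewer libraries and leaving out libraries were alternatives.

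The members, the 16 gene lists (2 of members, 4 of related genes and 10 of cell markers), the motifs and the naming rule were chosen with earlier results of these data known. That rule covers all members, genes of the related lists that were called or among the 3 most abundant, the 2 most abundant of each marker list and the 5 genes most alike. For most marker lists only the sums are given, so an unnamed marker gene may have been called. Genes named outside it are said to be so where they appear. A count of 0 allows up to 3 counts, 0.0512 to 0.0608 CPM per library.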

Additional observations from a re-analysis of the deposited data

How the results depend on the processing

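Every log2 difference of a member kept its sign under the alternatives that gave a value (140 for the Zeb2 comparison and 139 for the Irf8 comparison, all positive), and 0 reversed. The number of members past the threshold, 0 in every comparison, was higher under some. For Zeb2 it was 3 in DESeq2 and 2 without a filter on low counts (Elane and Ctsg), for Irf8 1 without the filter (Elane), between wild-type cell types 2 in DESeq2 and 1 without the filter, and between the mutants 2 without the filter and 3 with only the 4 libraries compared. Counts of all genes called moved more. The 14 of the Zeb2 comparison became 288 in DESeq2, 477 without the filter and 2 with only its 4 libraries. The 0 of the Irf8 comparison became 149 in DESeq2, 199 without the filter, 7 with RLE scaling, 2 with the length trend removed and 6 with only its 4 libraries. The 4 of the difference of effects became 168 in DESeq2, 306 without the filter and 1 with the replicate block. The cause was not tested.

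Leaving out 1 library at a time, genes called ranged from 3800 to 6894 between wild-type cell types (lowest without wild-type cDC2 replicate 2, and 3948 without wild-type cDC2 replicate 3). They ranged from 0 to 1035 for Zeb2 (0 without Zeb2 mutant replicate 2, 1 without its replicate 3, 1035 without wild-type cDC1 replicate 3), from 0 to 15 for Irf8 (15 without wild-type cDC1 replicate 3), from 3853 to 6821 between the mutants and from 0 to 530 for the difference of effects (530 without wild-type cDC1 replicate 3). Members called ranged from 0 to 2 between wild-type cell types, 0 to 1 for Zeb2 (1, Elane, without wild-type cDC1 replicate 3), 0 to 0 for Irf8, 0 to 1 between the mutants and 0 to 0 for the difference. The lone library of an arm was assumed to vary like the other groups. Summed levels moved by less than 1 SD under CPM over total counts and RLE scaling. In an alternative added after seeing the data, the members without overlap stayed 10 for Zeb2 and ranged from 8 to 10 for Irf8 (10 without wild-type cDC2 replicate 3).

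No pairing by replicate number was seen: the correlation of the differences between replicates 2 and 3 ran from -0.11 to -0.02 between groups. This cannot exclude that libraries with the same number share an animal or a batch. With the replicate block, 5656, 13, 0, 5185 and 1 genes were called in the 5 comparisons, and 0 members in each. Depth limits folds against libraries with few or no counts, such as Ngp and Lcn2 with 0 counts in wild-type cDC1 replicate 3 and S100a9 with 0 in wild-type cDC2 replicate 2. The summed late level differed 19.3-fold between the wild-type cDC1 replicates and 29.0-fold between those of wild-type cDC2.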
